A study of Mus musculus with 22 samples.

Results

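Genes of pigmentation and of the melanosome, 10 in all, were compared between whole brains of DBA/2J (D2) and C57BL/6J (B6) mice: Gpnmb, Tyrp1, Tyr, Dct, Pmel, Myo5a, Rab27a, Mlph, Oca2 and Slc45a2. The members were all the probesets that the platform annotation gives to 1 of these 10 genes alone, dim ones included, with Pmel under its older symbol Si. A probeset is a small group of probes on 1 stretch of a transcript. There were 207 such probesets among 1190406 with values, of which 309786 carry a single gene symbol. A further 2 member rows were empty on all arrays.

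The arrays held total RNA of whole brain from 12 D2 and 10 B6 mice, 1 mouse to an array, on the Affymetrix Mouse Exon 1.0 ST array. All were naive adult males of 2 inbred strains, with no treatment and no engineered allele, and their age is not stated. By its title, the series is about alternative splicing that differs between these strains. As background, D2 is a dilute brown strain that carries the brown allele of Tyrp1, the dilute allele of Myo5a, in which a provirus has inserted, and a nonsense allele of Gpnmb. B6 is a black strain with the usual forms of all of these genes, and both strains are non-agouti.

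Melanin is made in the melanosome, an organelle related to the lysosome. Pmel builds its internal fibrils, the enzymes Tyr, Tyrp1 and Dct make the pigment, Oca2 and Slc45a2 set the ions and pH inside, and the motor Myo5a carries the finished organelle, held to it by Mlph and Rab27a. In the brain melanocytes are few and lie in the meninges, whereas Myo5a is a neuronal motor and Gpnmb, a glycoprotein of melanosomes and lysosomes, is known from macrophages and microglia.

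The promoters of the 3 pigment enzymes are shown because they share the core of the M-box TCATGTGCT, the kind of element through which the regulator Mitf acts in melanocytes. Both the motif and the 3 genes were picked by hand, so the match is no independent finding. RefSeq promoter windows (GRCm38.p6, 250 bases before to 50 after the start) matched 8 of the 10 members; Pmel and Slc45a2 were not matched. The sequences run 5′ to 3′ on the gene's strand, with the matched letters in capitals. They are Tyr at chr7:87493515-87493574 on the minus strand, Tyrp1 at chr4:80834126-80834185 on the plus strand and Dct at chr14:118052378-118052437 on the minus strand.
Tyr: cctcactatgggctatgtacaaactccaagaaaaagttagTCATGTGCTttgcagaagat
Tyrp1: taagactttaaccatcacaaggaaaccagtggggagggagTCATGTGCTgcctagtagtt
Dct: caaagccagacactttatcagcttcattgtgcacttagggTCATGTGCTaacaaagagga
The match began 22 bases before the start of Tyr, 47 before that of Tyrp1 and 151 before that of Dct. On either strand, TCATGTGCT was in 134 of 32851 promoter windows of the table (0.408%). The shorter TCATGTG, which lies within it, was in 3.77% of windows, and CATGTG, which lies within both, in 14.2%. Parts of the windows of Gpnmb and Oca2 are shown because these were the 2 genes that fell. Oca2, at chr7:56239533-56239589 on the plus strand, held CATGTG on the opposite strand only, read here as CACATG, 186 bases before its start. The 250 bases before the start of Gpnmb, at chr6:49036268-49036517 on the plus strand, held none of these letters.
Oca2: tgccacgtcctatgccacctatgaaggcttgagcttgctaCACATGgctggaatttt
Gpnmb: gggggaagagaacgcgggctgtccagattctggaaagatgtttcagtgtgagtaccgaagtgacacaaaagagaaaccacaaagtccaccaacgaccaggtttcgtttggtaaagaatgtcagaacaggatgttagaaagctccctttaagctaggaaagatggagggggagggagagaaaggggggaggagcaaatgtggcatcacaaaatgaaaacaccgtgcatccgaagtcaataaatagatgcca
A further motif, the E-box CACGTG, which reads the same on both strands and overlaps none of the others, was in the windows of Mlph and Rab27a, and in 7.15% of all windows. A match describes the letters of this window and no more.

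Per the labels, 24 arrays were hybridised and the authors left out 2 read by another scanner. The medians of single arrays were 1.451 to 1.511 (log2) in D2 and 1.413 to 1.47 in B6, so D2 arrays lay slightly higher, with overlap. Arrays of the same strain correlated across probesets with a median r of 0.945, and D2 with B6 arrays with 0.935. The scale is log2 of the deposited RMA values throughout, and a probeset counts as above the brightness filter where its mean over the 22 arrays reached 1.44, the median of all probesets. Neuron markers were bright (summed level of 4 genes 11.0 to 11.4 in D2 and 11.1 to 11.5 in B6). The melanocyte marker Mlana was near the filter, at 1.98 in D2 and 1.97 in B6. Gpr143 and Slc24a5 were also dim (2.12 and 2.30 over all arrays), while Mitf, Sox10 and Kit were brighter (4.23, 4.63 and 6.54). None of the 6 measured melanocyte markers was called (limma, 1 at an unadjusted p under 0.05, a share not counted over all genes), while Mc1r had no gene value. In whole brain, fewer cells of a type and less RNA per cell cannot be told apart.

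Of the 207 member probesets, 25 were lower in D2 and 1 was higher at a Benjamini-Hochberg adjusted p under 0.05 in limma over all probesets, while 181 were not called. Over all probesets with a single gene, 1.93% were called lower and 0.897% higher (2.83% in either direction), and over all probesets, named or not, 1.1% were lower and 0.788% higher (1.88%). The 25 lower ones belonged to 3 genes, 8 to Gpnmb, 13 to Myo5a and 4 to Oca2, and the higher one was of Rab27a. In 6 of the 207 the D2 and B6 values did not overlap, 3 of Gpnmb, 2 of Myo5a and 1 of Oca2. Over all probesets with a single gene, the share without overlap was 0.582%. By brightness, 127 members were above the filter and 80 below, where 3.41% and 0.767% of all probesets with a single gene were called. The other 6 genes, Tyrp1, Tyr, Dct, Pmel, Mlph and Slc45a2, had no called probeset among their 95, of which 40 were above the filter. An unadjusted p under 0.05 was found for 11 of the 95, and its share over all probesets was not counted.

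Gene values, the median on each array of a gene's probesets above the filter, existed for all 10 members. Gpnmb and Oca2 fell and the other 8 were not called, against 10.8% of 16016 genes called (8.26% lower and 2.57% higher). The median difference over all genes was -0.05.

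**Figure D1:**
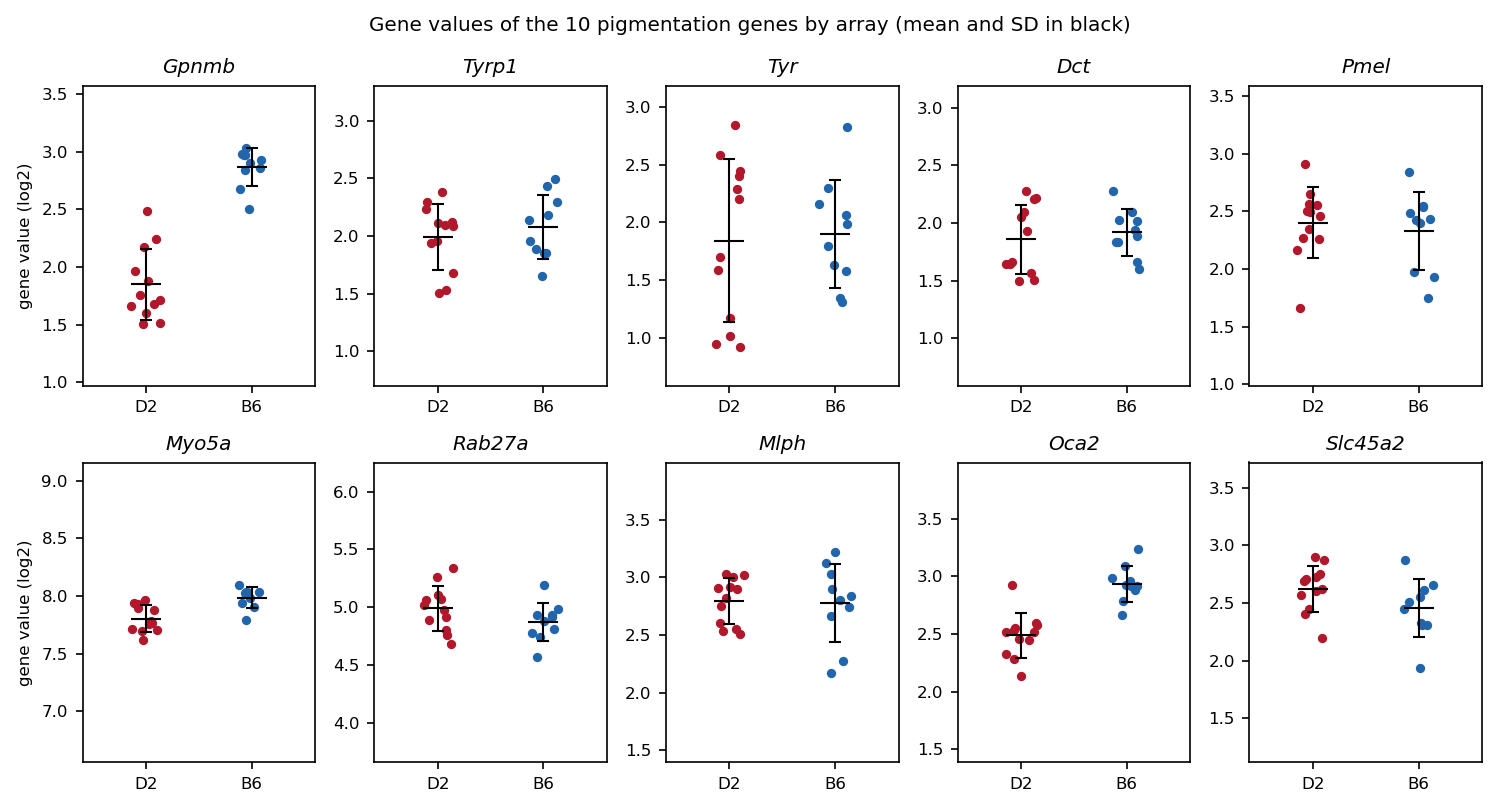
Gene values (log2) of the 10 members on each array, D2 left of B6, with 1 point per mouse, the strain mean in black and whiskers of 1 SD. Gpnmb is the gene whose D2 points (up to 2.48) all lie below the B6 points (from 2.50), and Oca2 is shifted with overlap.

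Gpnmb was lower in D2 brains by 1.02 on the log2 scale, 0.494-fold. Its gene value was 1.50 at the lowest, 1.74 at the median and 2.48 at the highest in D2, against 2.50, 2.91 and 3.03 in B6. The highest D2 mouse stood just under the lowest B6 mouse, so the strains did not overlap, which was so for 1.18% of all genes. The means were 1.85 ± 0.31 in D2 (SD, n = 12) and 2.87 ± 0.16 in B6 (SD, n = 10), a difference of -1.02 (SE 0.11, 95% interval -1.24 to -0.80, limma adjusted p = 1.22e-07). Of the 10 probesets behind this value, 4 (4992000, 5192219, 4701136 and 4619897) reached the filter through B6 alone, with D2 means of 1.08 to 1.36. With no filter, over all 18 probesets, the difference was -0.84 (adjusted p = 4.87e-06). Within the 18 arrays whose file label carries the letter A it was -1.04. Within the 4 that carry B, 2 of each strain, it was -0.96 with an adjusted p of 0.107.

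The fall of Gpnmb differed between its probesets. Probeset 4992000 was 0.24 at the lowest, 1.04 at the median and 1.77 at the highest in D2, against 2.98, 3.89 and 4.54 in B6. Every B6 mouse was thus above every D2 mouse, with a difference of -2.71 (SE 0.20, limma adjusted p = 5.43e-10). Probesets 5526274 and 4619897 did not overlap either, at differences of -1.37 and -0.97. Probesets 4386581, 5192219 and 4701136 overlapped, at -1.76, -1.70 and -1.03. The overlap of 5192219 came from D2 replicate 14 alone, at 2.44. The other D2 mice reached 1.41 at most, and B6 began at 1.91. All 8 called Gpnmb probesets had a D2 mean below the brightness filter, a level at which a log2 difference can understate a ratio. The brightest probeset of the gene, 5605047, had 4.85 ± 0.37 in D2 and 4.77 ± 0.26 in B6, a difference of 0.07 that was not called (adjusted p = 0.899). The 10 probesets not called ran from -0.59 to 0.17.

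**Figure D2:**
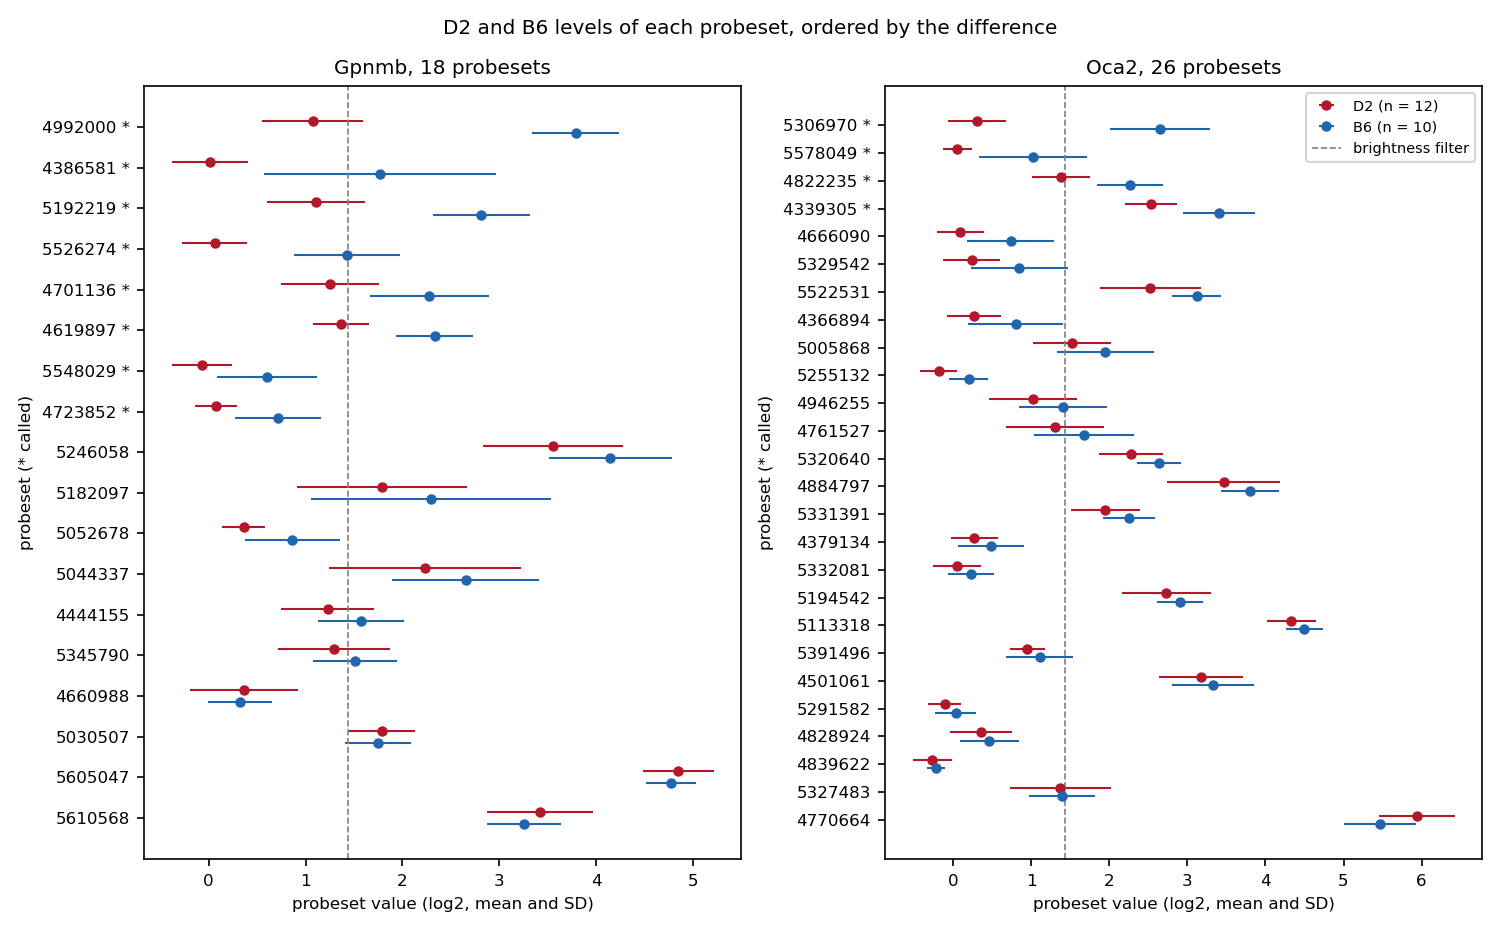
Mean and SD (log2) of each Gpnmb and Oca2 probeset, with D2 (n = 12) drawn above B6 (n = 10), ordered by the difference; an asterisk marks a called probeset and the dashed line the brightness filter. The upper rows of Gpnmb have D2 means left of the line, and the lowest rows coincide.

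Microglia and macrophages are the brain cells best known for Gpnmb, and 3 of their 13 measured markers fell in D2, where 8.26% of all genes did: the complement subunit C1qb by 0.90, the lysosomal protein Cd68 by 0.49 and the mannose receptor Mrc1 by 0.32. The summed level of the 13 markers was 7.96 to 8.48 in D2 (median 8.20) and 8.19 to 8.73 in B6 (median 8.46). The other 10 were not called. Their part in the Gpnmb difference was not tested.

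Oca2, a melanosomal membrane protein that acts on the chloride and pH of the organelle, was lower in D2 by 0.45, 0.734-fold. Its gene value was 2.14 at the lowest, 2.52 at the median and 2.93 at the highest in D2, against 2.67, 2.92 and 3.24 in B6. The strains overlapped, with means of 2.49 ± 0.19 in D2 and 2.94 ± 0.15 in B6 (difference -0.45, SE 0.08, limma adjusted p = 0.000485). Of the 12 probesets behind this value, 4822235 and 4761527 reached the filter through B6 alone, with D2 means of 1.38 and 1.31. Of the 26 Oca2 probesets, 25 were lower in D2 in sign and 4 were called. Probeset 5306970 had the widest gap, at -0.13 to 0.98 in D2 (median 0.19) and 1.70 to 3.76 in B6 (median 2.59), with no overlap, a difference of -2.34 and an adjusted p of 1.76e-08. It lies below the filter and so does not enter the gene value. Probesets 5578049, 4822235 and 4339305 fell by 0.97, 0.89 and 0.87, with overlap, and in 3 of the 4 called the D2 mean was below the filter.

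The brightest Oca2 probeset, 4770664, had the opposite sign, with 5.94 ± 0.49 in D2 and 5.47 ± 0.46 in B6 (0.47, limma adjusted p = 0.304). With a filter at the 75th percentile of all probesets, which leaves 3 Oca2 probesets, the gene difference was -0.15 (adjusted p = 0.437). Within the letter B arrays it was -0.34 (adjusted p = 0.536). Of the 3 measured markers of the retinal pigment epithelium, a tissue that uses Oca2, Rlbp1 fell by 0.55 in D2, where 8.26% of all genes fell. The other 2 were not called, Rpe65 at 1.73 in D2 and 1.75 in B6 and Best1 at 2.57 in D2 and 2.56 in B6. Their part in the Oca2 difference was not tested.

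The 3 pigment enzymes were dim and were not called. Tyr, tyrosinase, which starts melanin synthesis, had 16 of its 19 probesets below the filter, and its gene value ran from 0.92 to 2.84 in D2 and from 1.31 to 2.83 in B6. The strains overlapped over nearly the whole range, with a difference of -0.06 (95% interval -0.54 to 0.42, limma adjusted p = 0.906). Tyrp1, the enzyme whose brown allele D2 carries, had 12 of 16 probesets below the filter. It ran from 1.50 to 2.39 in D2 and from 1.65 to 2.50 in B6, a difference of -0.08 (interval -0.32 to 0.16, adjusted p = 0.708). Dct, dopachrome tautomerase, had 7 of 11 probesets below the filter. It ran from 1.49 to 2.28 in D2 and from 1.60 to 2.28 in B6, a difference of -0.06 (interval -0.29 to 0.16, adjusted p = 0.77). The intervals of all 3 enzymes include 0 and reach well to either side of it.

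Pmel, the fibril protein, and Slc45a2, a transporter of the melanosome membrane, were not called either. Pmel ran from 1.66 to 2.91 in D2 and from 1.75 to 2.84 in B6, a difference of 0.07 (interval -0.20 to 0.34, adjusted p = 0.779). Its 14 probesets differed by -0.30 to 0.29, and 8 of them were below the filter. Slc45a2 ran from 2.20 to 2.90 in D2 and from 1.94 to 2.87 in B6, a difference of 0.17 (interval -0.03 to 0.37, adjusted p = 0.282). Its brightest probeset, 4875220, was 5.47 ± 0.27 in D2 and 5.46 ± 0.35 in B6.

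Myo5a, the motor and the dilute gene, was the member with the most signal: all 51 of its probesets were above the filter. Its gene value was 7.62 at the lowest, 7.78 at the median and 7.97 at the highest in D2, against 7.79, 8.02 and 8.10 in B6. The strains overlapped, and the difference of -0.18 (SE 0.06, 95% interval -0.31 to -0.05) had a limma adjusted p of 0.0599, just over the threshold. It passed in 3 alternatives: with the file letter as a block (adjusted p = 0.0406), with the 75th percentile filter (0.0263) and with a robust variance model (0.0328). With arrays centred on their medians the difference was -0.08 (adjusted p = 0.467), and with the array median as a covariate -0.07 (0.753). Array medians went with strain, at 1.475 ± 0.018 in D2 and 1.437 ± 0.018 in B6 (SD). That covariate can therefore also take up part of a strain difference.

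By single probeset, 13 of the 51 Myo5a probesets fell, by between 0.60 and 0.33, and none rose. In all 13 the D2 mean was above the filter, unlike in Gpnmb. Probeset 4562936 had the largest fall, with 6.83 to 7.58 in D2 (median 7.18) and 7.40 to 8.13 in B6 (median 7.80), adjusted p = 0.000793. Probeset 5083939 did not overlap, at 7.30 to 7.95 in D2 and 8.03 to 8.51 in B6 (difference -0.53). Probeset 5316846 did not overlap either, at 7.23 to 7.95 in D2 and 8.08 to 8.27 in B6 (difference -0.49). The 38 not called ran from -0.50 to 0.55, and 21 of the 51 differences were above 0. The brightest, 4943528, was 9.54 ± 0.14 in D2 and 9.41 ± 0.10 in B6 (adjusted p = 0.574). With the median of each array as a covariate, 4 Myo5a probesets were lower and 2 higher, where 1.17% of all probesets with a single gene were called.

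**Figure D3:**
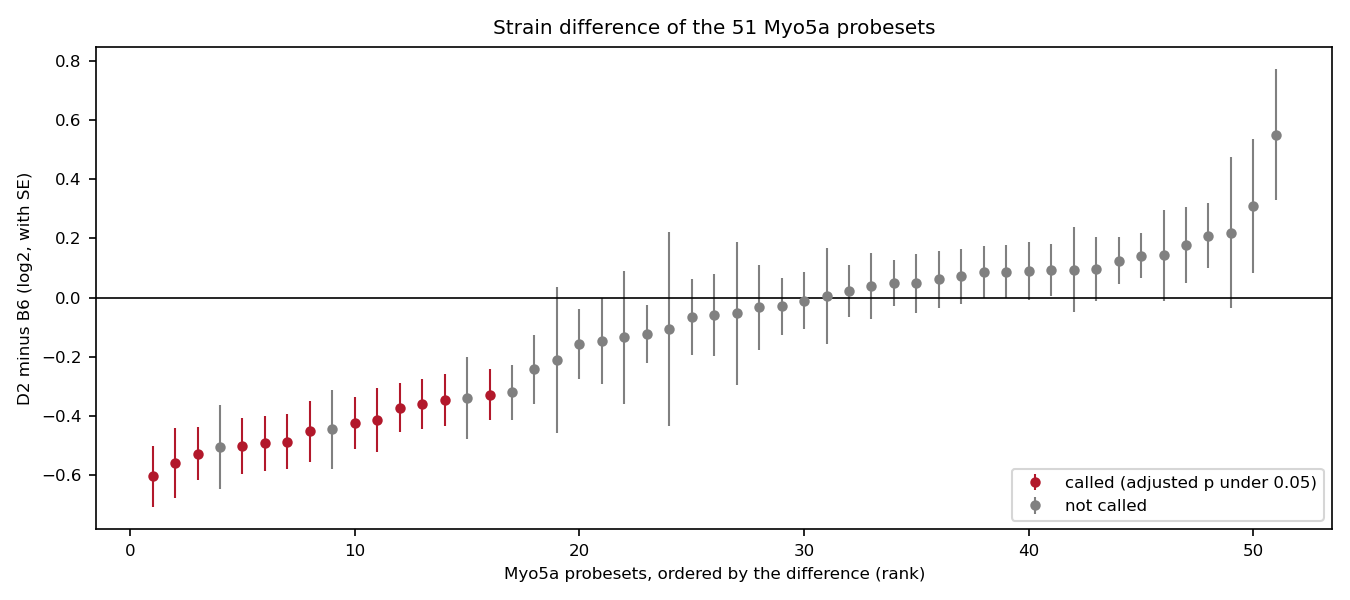
Strain difference (D2 minus B6, log2) of the 51 Myo5a probesets in order of the difference, with error bars of 1 SE and called probesets in colour. The called ones lie between -0.60 and -0.33, and the others run from -0.50 to 0.55.

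Rab27a, the small GTPase that marks the melanosome, and Mlph, which links it to Myo5a, had no called gene value. Rab27a ran from 4.68 to 5.34 in D2 and from 4.57 to 5.20 in B6, a difference of 0.12 (interval -0.06 to 0.29, limma adjusted p = 0.404). Its probeset 5183138 was the one member called higher, at 5.84 to 6.60 in D2 (median 6.28) and 5.15 to 6.11 in B6 (median 5.74). The strains overlapped, the difference was 0.51 (SE 0.12, adjusted p = 0.0273), and with arrays centred on their medians the adjusted p was 0.0531. Mlph ran from 2.51 to 3.03 in D2 and from 2.17 to 3.22 in B6, a difference of 0.02 (interval -0.21 to 0.25, adjusted p = 0.94). Its brightest probeset, 4812220, was 7.38 ± 0.28 in D2 and 7.08 ± 0.34 in B6 and was not called (adjusted p = 0.367).

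Exon usage was measured by the splicing index, the log2 level of a probeset relative to its gene on each array, and called at an adjusted p under 0.05 and a difference of at least 0.5. Of 127 member probesets tested, 5 were called, 4 in Gpnmb and 1 in Oca2, against 1.66% of 236114 probesets. In Gpnmb, 4992000 was 1.69 lower relative to the gene, while 5605047, 5610568 and 5030507 were 1.09, 1.18 and 1.05 higher. The strain means of those 3 probesets lay within 0.17 of each other. All 4 indices are measured against a gene median that includes the 4 probesets which reached the filter through B6 alone, 4992000 among them, with D2 means below it. They are therefore values relative to that median and no separate support for a change of exon. Probeset 5610568 was 3.42 in D2 and 3.25 in B6, and 5030507 was 1.79 in D2 and 1.75 in B6; these were singled out after their values were seen. In Oca2, 4770664 was 0.92 higher relative to the gene. Its own difference of 0.47 was not called (limma adjusted p = 0.304), and the gene median it is set against fell by 0.45. This index is likewise relative to that median and no separate support for a change of exon. In Myo5a 0 of 51 were called at this size, with 4 lower and 4 higher at an adjusted p under 0.05 at any size (2.04% of all probesets tested). At an unadjusted p under 0.05 there were 32. The share of all tested probesets at that unadjusted threshold was not counted, so the 32 cannot be set against a background. The Myo5a index differences ran from -0.42 to 0.73. The index needs probesets that all respond in proportion; whether D2 variants lie under these probes, which were designed on the B6 reference, was not tested.

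Among the members, deviations from the strain means over the 22 arrays correlated most between Tyrp1 and Oca2 (r = 0.62) and least between Myo5a and Mlph (r = -0.44). Gpnmb correlated with the other 9 members at -0.21 to 0.34. The genes most like Gpnmb in these deviations were Celf2 (r = 0.73), Cfap61 (0.72), Ces1a (0.71), Zdhhc8 (0.71) and EU599041 (0.70), where the 99th percentile of all genes was 0.49. Those most like Myo5a were Clip1 (r = 0.89), Bptf (0.88), Cep290 (0.88), Setd2 (0.87) and Eml5 (0.86), with a 99th percentile of 0.70. Within single strains, the r of EU599041 with Gpnmb was 0.82 in D2 but 0.22 in B6. The lowest such value of the other genes named for Gpnmb was 0.60, for Ces1a in B6. All points share the RNA extract and the scaling of their array, and these values describe the arrays with no test.

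Of 54 other genes of pigmentation, from the signals of the melanocyte to the sorting and transport of the melanosome, 51 had a gene value. Among them 5 fell in D2, 0 rose and 46 were not called (limma), so 9.8% were called against 10.8% of all genes, a share near the background. At an unadjusted p under 0.05, 10 were lower and 6 higher, and the share over all genes at that threshold was not counted. With arrays centred on their medians 4 were called lower and 5 higher, and with the array median as a covariate 1 was lower, which was Tpcn2. Over all genes, 11.1% were called with arrays centred and 3.09% with the covariate. The median difference of the 51 genes was -0.04, beside -0.05 for all genes. Mc1r, Bloc1s2 and Bloc1s3 had no gene value.

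Those that fell came from each of the 4 groups. Tpcn2, a two-pore channel of melanosomes and lysosomes, was 3.77 ± 0.20 in D2 and 4.40 ± 0.22 in B6 (-0.62, limma adjusted p = 3.35e-05), with no overlap. Rab27b, the close relative of Rab27a, was 3.99 ± 0.30 in D2 and 4.54 ± 0.37 in B6 (-0.55, adjusted p = 0.00821). Dynll2, a light chain that also binds Myo5a, was 7.48 ± 0.24 in D2 and 7.92 ± 0.27 in B6 (-0.44, adjusted p = 0.00675). Kitl, the ligand of the receptor Kit, fell by 0.35 (adjusted p = 0.0136), and Vps33a, a subunit of lysosomal sorting complexes, by 0.25 (adjusted p = 0.0358). With the filter at the 75th percentile Rab27b was at -0.24 and not called (adjusted p = 0.154), and Tpcn2 was at -0.27 (0.043). By group, 1 of 14 signals and regulators, 1 of 8 membrane proteins, 1 of 20 sorting genes and 2 of 9 transport genes were called.

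**Figure D4:**
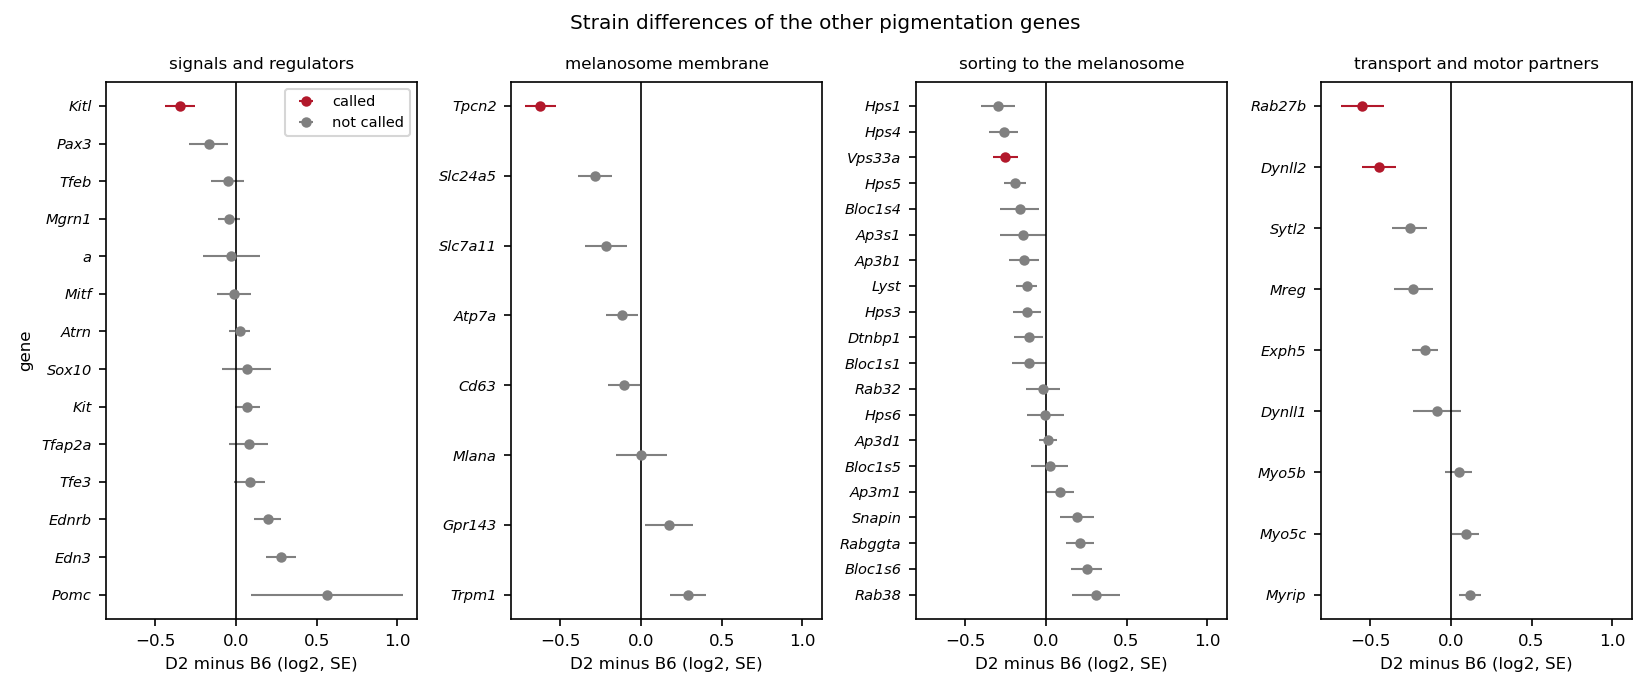
Strain difference (D2 minus B6, log2, error bars of 1 SE) of the 51 other pigmentation genes in 4 groups, with called genes in red; the gene a is Asip. Called differences run from -0.62 for Tpcn2 to -0.25 for Vps33a, and no called gene lies right of 0.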

How the data were processed

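Total RNA of 22 mouse brains, 12 D2 and 10 B6, was hybridised to exon arrays, per the labels' protocols after ribosomal RNA reduction. The authors deposited log2 values made with RMA (affy 1.12.2, R 2.6.0, per the submitters' processing notes), without detection calls; RMA's options and the genome build are not given in the sources used here. Linear models of the strain difference, D2 minus B6, were fitted with limma 3.58.1 in R 4.3.3 (lmFit, then eBayes with its defaults), and p-values were adjusted over all features by the Benjamini-Hochberg method, with a threshold of 0.05. The probeset test used all 1190406 probesets with values. Gene values were medians of probesets with 1 symbol and a mean of at least 1.44, for the 16016 genes with 3 or more. P-values weigh the strain difference against the spread within strains. With 1 array per mouse, that spread holds animal and technical variation together, and the number of arrays limits precision.

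The members and gene lists were chosen with earlier results of these data known. Named were all 10 members with up to 6 called probesets in each direction and the brightest (the 2 brightest where none was called), up to 4 called genes of each other group, and the 5 genes most like Gpnmb and Myo5a. The marker lists held microglia, neurons, astrocytes, oligodendrocytes and their precursors, meningeal fibroblasts, choroid plexus, melanocytes and retinal pigment epithelium. In data simulated for the D2 against B6 test of 1190406 probesets, 50 were changed at each size. The test recovered 8% of probesets with a true difference of 0.5, 54% at 1 and 94% at 2, with 5 false calls among 83. For the test of 16016 gene values it recovered 10% at 0.25, 72% at 0.5 and 98% at 1. For the exon usage test of 236114 probesets it recovered 12% at 0.5 and 74% at 1. In these 2 tests also, 50 features were changed at each size. The real data held far more calls, 22430 probesets, 1735 genes and 3929 exon usage values. Adjustment is stricter where fewer features change, so the simulated shares can understate recovery in the real data. Alternatives changed the filter, gene summary, scaling, file letter and number, arrays, variance model and threshold.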

Additional observations from a re-analysis of the deposited data

Results flagged for a closer look

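Mlph probeset 4616186 held a B6 mouse far from the others of its strain. B6 replicate 2 was at 4.639 (log2), while the other B6 mice lay between 5.298 and 5.987, a gap of 0.489 of the group's range against Dixon's critical value of 0.466 for 10 samples. It was the 1 such value among 42 checked, and chance gives about 1 in 20. That critical value is for groups of 10, the size of B6, and does not apply to the 12 D2 mice. A D2 mouse also stood apart in Gpnmb probeset 5192219. There D2 replicate 14 was at 2.442, while the other D2 mice lay between 0.3975 and 1.408.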

How the results depend on the processing

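The difference of Gpnmb stayed below 0 in all 11 alternatives that gave one and that of Oca2 in all 12; with the filter at the 75th percentile Gpnmb, Tyrp1, Tyr, Dct, Pmel and Slc45a2 had too few probesets for a gene value. Calls were lost in the 4 letter B arrays for Gpnmb (-0.96) and Oca2 (-0.34), and for Oca2 with the 75th percentile filter (-0.15). Myo5a gained a call with the letter as a block (-0.18), that filter (-0.19) and the robust variance model (-0.18).

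The count of lower member probesets, 25, was 10 with the array median as a covariate, 16 with the 75th percentile filter, 16 at an adjusted p under 0.01 and 0 in the letter B arrays, where fewer samples were used. Over all probesets with a single gene, 2.83% were called in either direction in the main test. That share was 1.17% with the covariate, 1.53% at 0.01 and 0.0407% in letter B. With the 75th percentile filter it was 5.85%, and 74 members were tested. The count of higher member probesets, 1, was 0 at 0.01, with arrays centred and in letter B, 3 with the covariate and 2 without D2 replicates 13, 14 and 19. The share over all single-gene probesets was 3.11% with arrays centred and 2.3% without those D2 replicates. Exon usage calls, 5, were 9 with the covariate, 12 with no filter, 14 with no minimum size (chosen after seeing the data), and 0 with the 75th percentile filter and in letter B. Over all probesets tested for exon usage, 1.66% were called in the main test and 0.897% with the covariate. The share was 1.42% with no filter, 2.04% with no minimum size, 1.59% with the 75th percentile filter and 0% in letter B. Other pigmentation genes lower in D2, 5, were 1 with the covariate, 3 at 0.01, 8 with the block, 10 with the mean over probesets and 0 in letter B; those higher, 0, were 5 with arrays centred and 4 with the mean. Over all genes, 10.8% were called in either direction in the main test, 3.09% with the covariate and 5.18% at 0.01. With the block 13.3% were called, with the mean 17%, with arrays centred 11.1% and in letter B 0.468%. The causes were not tested, beyond fewer probesets or samples where these were the change. Array medians differed between the strains, so the array median covariate cannot be fully separated from strain.

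The signs of members that were not called turned with the setting, none of them called. With the covariate, Mlph was -0.17, Pmel -0.19 and Slc45a2 -0.027, and probesets Dct 4960900 0.011, Mlph 4616186 -0.28, Mlph 4812220 -0.025, Oca2 4770664 -0.0042, Pmel 4351786 -0.36, Slc45a2 4875220 -0.11, Tyr 4775279 -0.060 and Tyrp1 5375114 -0.15. With arrays centred, which moves the median of all genes to 0.046, Dct was 0.038, Tyrp1 0.018, Tyr 0.042 and Slc45a2 4875220 -0.023. With the mean over probesets Dct was 0.067 and Mlph -0.013. With no filter Dct was 0.22, Mlph -0.11, Pmel -0.011, Rab27a -0.00075 and Tyrp1 0.085. With the 75th percentile filter Mlph was -0.23. In the letter A arrays Mlph was -0.11 and Pmel -0.058; in letter B Tyrp1 was 0.29 and Slc45a2 4875220 -0.14. Without the 3 D2 mice Mlph was -0.031, Tyr 0.026, Pmel 4351786 -0.016 and Tyr 4315817 0.021.

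No paired analysis was possible because D2 and B6 arrays share no replicate numbers.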

Other observations

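Marker genes of other brain cells that are not described above moved as follows between the strains. Of the astrocyte markers 2 of 5 fell in D2, of the oligodendrocyte markers 2 of 4 and of the choroid plexus markers 2 of 5, while 0 of 3 precursor markers and 0 of 4 meningeal fibroblast markers were called by limma; over all genes 8.26% fell and 10.8% were called in either direction. The summed level of the choroid plexus markers was 10.4 to 11.0 in D2 and 10.9 to 11.1 in B6, and that of the meningeal fibroblast markers, whose tissue holds the brain's melanocytes, was 7.08 to 7.74 in D2 and 7.12 to 7.63 in B6.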
